A study of Mus musculus with 12 samples.

Results

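The comparison described here is that of HtrA2 knockout with wild-type mouse embryonic fibroblasts that had received vehicle only. Its members were all arrays with those labels, 3 knockout and 3 wild-type, which made 6 of the 12 arrays of the series. The fibroblasts were primary cells, taken from wild-type or HtrA2 knockout mice, and were exposed to vehicle for 4 h at passage 4. Both groups therefore shared the medium, the passage and the vehicle, and differed by genotype. The other 6 arrays, 3 of each genotype, came from cells given 1 µM rotenone for 4 h. They had no part in the choice of genes by the vehicle difference, but entered the fits of 12 arrays, where named. The labels leave unstated which part of the Htra2 gene was deleted and what the strain background was. They also do not say whether replicates stem from different embryos or cultures; the p-values thus reflect how far these arrays scatter, and that scatter may be technical. For the rotenone arrays of wild-type cells, titles, sources and descriptions give wild type while the genotype field gives knockout, and they were used as wild type.

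HtrA2, also called Omi, is a trimeric protease with a PDZ domain that resides between the mitochondrial membranes. It takes part in protein quality control there, and after release into the cytosol it binds and cleaves inhibitor-of-apoptosis proteins. Mice without active HtrA2 lose striatal neurons and develop parkinsonian motor signs.

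All values are log2 expression of a probe set, the group of array probes that reports on a transcript, and a difference of 1 is a 2-fold change. Arrays of the same replicate number were compared as pairs. The first principal component of the 6 arrays held 61.3% of the variance and set both arrays numbered 3 (scores 30.0 and 28.7) apart from the other 4 (-19.6 to -8.17). The replicate 3 arrays had the higher level of Xist, the RNA that silences an X chromosome: wild type stood at 7.07, 7.30 and 9.42 for replicates 1 to 3 and knockout at 7.21, 7.20 and 9.08. Eif2s3y, a Y-linked translation factor gene, was lowest on the replicate 3 arrays, with 7.81, 7.38 and 5.92 in wild type and 7.58, 7.79 and 6.44 in knockout. In both genotypes replicate 3 was the one that stood apart for both genes. Vim, a mesenchymal filament gene, was at 13.8 to 14.1 on all 6 arrays and Cdh1, the epithelial cadherin, at 3.73 to 3.99.

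Few transcripts separated the genotypes. Of 22626 probe sets, 2 passed an adjusted p of 0.05 (limma with the replicate number as a block), which is 0.00884% of those tested, and both were lower in knockout cells. They report Htra2 itself and Loxl3, the gene next to it on chromosome 6. Without the block neither passed (adjusted p = 0.154 and 0.122). The count was 5 without replicate 1, 1 without replicate 2 and 208 without replicate 3. Without adjustment, 791 probe sets had a p under 0.05 (3.5%), 322 of them higher (1.42%) and 469 lower (2.07%) in knockout cells.

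The brighter of 2 Htra2 probe sets read 9.04, 8.83 and 9.32 in wild-type and 7.57, 7.57 and 7.87 in knockout cells. The groups did not overlap, and replicate 3 was the highest array of each. Htra2 thus fell by 1.39 on the log2 scale, a 2.62-fold difference (SE 0.09, limma adjusted p = 4.11e-04). On the rotenone arrays the same probe set read 9.09, 9.02 and 9.14 in wild-type and 7.66, 7.82 and 7.81 in knockout cells, a difference of -1.32 (limma adjusted p = 0.0328). The wild-type rotenone arrays stood at the wild-type level of this probe set.

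The dimmer Htra2 probe set did not show this loss. It read 7.79, 7.72 and 8.43 in wild-type and 8.53, 8.23 and 8.40 in knockout cells. The wild-type array numbered 3 lay inside the knockout range. The difference was 0.40 (SE 0.13) in the direction of more signal in knockout cells, and it did not pass (limma adjusted p = 1.00, unadjusted p = 0.0122). The position of the probes within the gene was not used here, so the remaining signal cannot be assigned to a part of the transcript.

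Loxl3 encodes a lysyl oxidase, an enzyme that crosslinks collagen and elastin. Its probe set read 10.99, 11.02 and 11.10 in wild-type and 10.14, 9.95 and 9.96 in knockout cells. All knockout arrays lay below all wild-type arrays, with a spread within each group of 0.05 and 0.10 (SD, n = 3). Loxl3 fell by 1.02, or 2.02-fold (SE 0.10, limma adjusted p = 0.00635). The call was lost without replicate 2 (adjusted p = 0.200), where the difference was -0.99. On the rotenone arrays Loxl3 differed by -1.03 with no overlap between genotypes, but did not pass (adjusted p = 0.283). These are bulk RNA samples, in which fewer cells with a transcript and less of it per cell cannot be told apart.

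**Figure D1:**
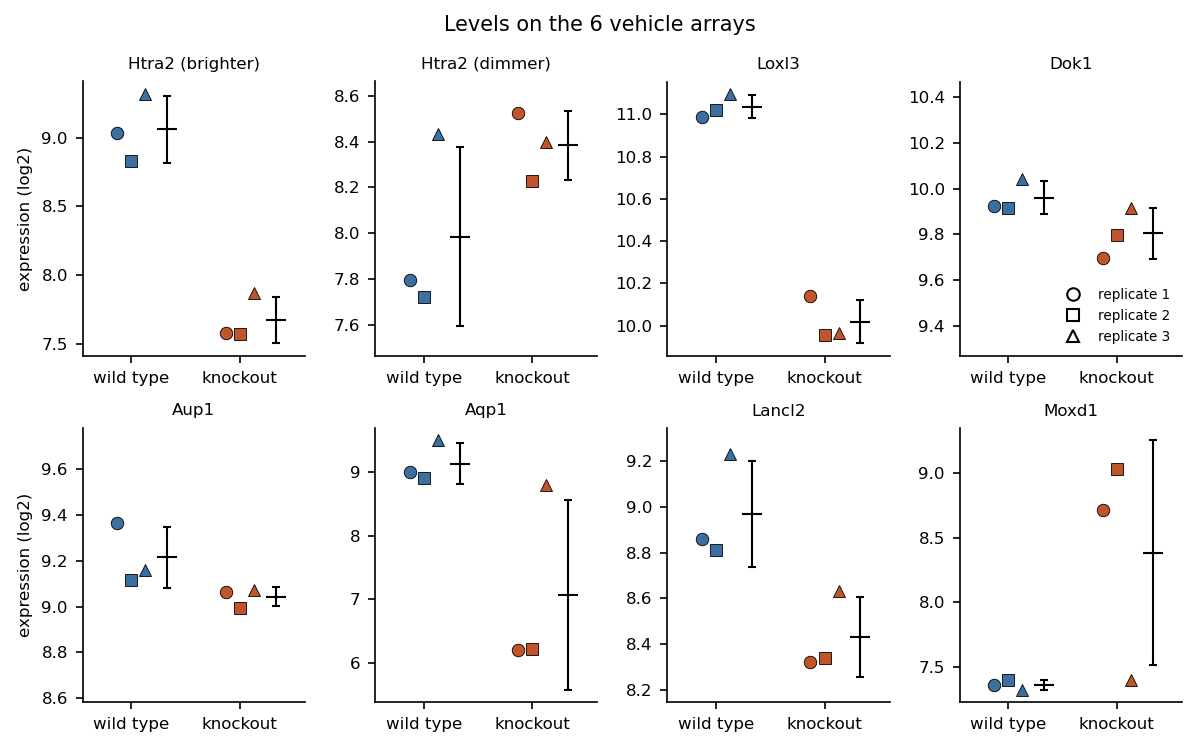
Log2 expression (vertical axis, a separate scale in each panel) of 8 probe sets on the 3 wild-type (blue) and 3 knockout (orange) vehicle arrays. Marker shapes give the replicate number, and the dash and bar beside them the mean and SD of 3 arrays. Htra2 on its brighter probe set and Loxl3 are lower on every knockout array, the dimmer Htra2 probe set is not, and the Aqp1 and Moxd1 arrays numbered 3 differ less between genotypes than the others.

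The remaining neighbours of Htra2 showed no such difference. In RefSeq gene order Loxl3 precedes Htra2 directly, apart from a microRNA gene, and Aup1, a lipid droplet and endoplasmic reticulum protein gene, follows it. Aup1 read 9.37, 9.12 and 9.16 in wild-type and 9.07, 9.00 and 9.07 in knockout cells, a difference of -0.17 (SE 0.09, unadjusted p = 0.0931). Dok1, an adaptor of tyrosine kinase signalling on the far side of Loxl3, differed by -0.16 (SE 0.09). Of the 15 measured genes on each side, 30 in all, Loxl3 was called, and the other 29 lay between -0.21 and 0.26 with a median of 0.00. Mthfd2, a mitochondrial folate enzyme 13 measured genes after Htra2, was the other neighbour with an unadjusted p under 0.05, at -0.21 (SE 0.09).

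Chromosome 6 also carried lower-expressed genes far from Htra2. By 1 probe set per gene, 32 of 12393 genes had an unadjusted p under 0.001 (0.258%), and 7 of these 32 were among the 725 measured genes of chromosome 6. Htra2 and Loxl3 are 2 of the 7. Aqp1, a water channel gene, read 9.00, 8.91 and 9.50 in wild-type and 6.19, 6.21 and 8.80 in knockout cells, so that the knockout array numbered 3 lay near the wild-type level. Its difference of -2.07 (SE 0.31) did not pass (adjusted p = 0.194).

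Lancl2, which encodes a membrane-associated LanC-like protein, read 8.86, 8.81 and 9.23 in wild-type and 8.32, 8.34 and 8.63 in knockout cells. The groups did not overlap and the pairs were alike, at -0.54, -0.47 and -0.60, with a mean of -0.54 (adjusted p = 0.251). Further Lancl2 probe sets differed by -0.17 and -0.22. The others were Snx10, a sorting nexin gene (-0.45), Hoxa9, a posterior patterning gene (-0.58, with -0.09 for a dimmer probe set), and Tfpi2, a protease inhibitor gene, which was 0.71 higher. On the rotenone arrays these 5 genes differed by -1.94 (Aqp1), -0.77 (Lancl2), -0.48 (Snx10), -0.78 (Hoxa9) and 0.53 (Tfpi2). The 5 genes lay 84 to 317 measured genes before Htra2, and no gene after it reached that p. A probe set of Ggct, which lies 102 measured genes before Htra2 and encodes a glutathione cycle enzyme, came nearest to the threshold without passing, at -0.81 (SE 0.10, adjusted p = 0.0604); the brighter Ggct probe set differed by 0.01.

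**Figure D2:**
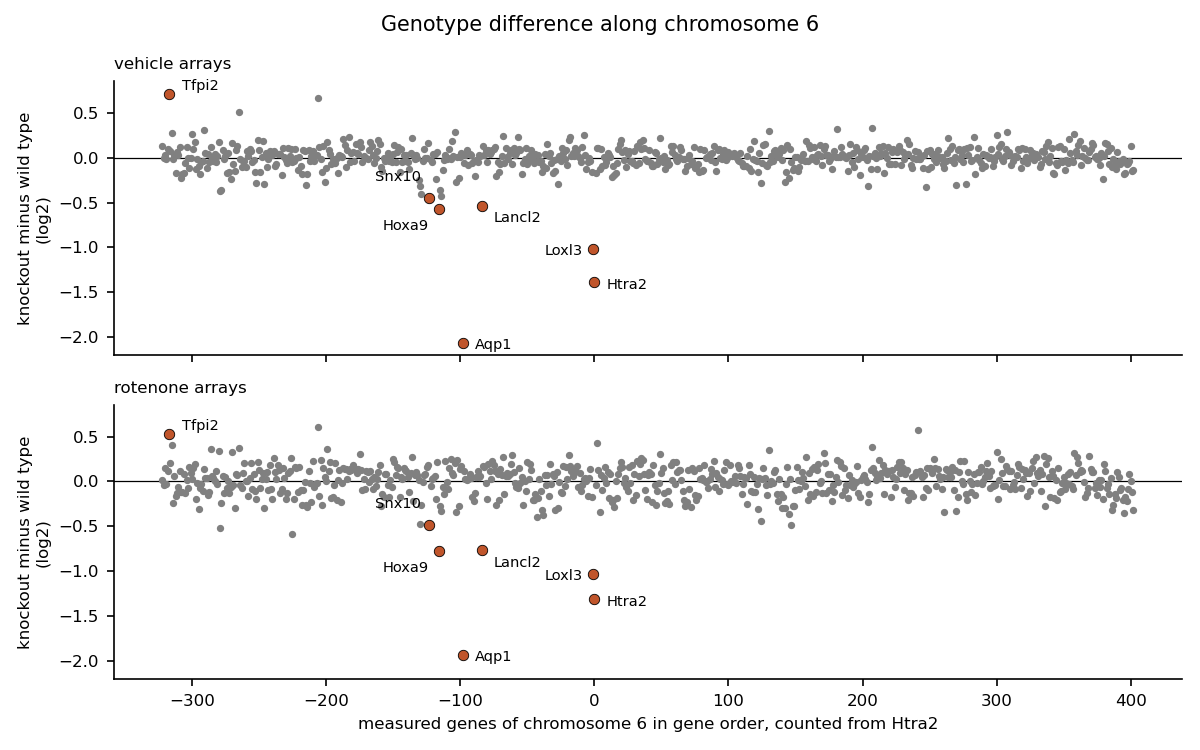
Difference between knockout and wild type (log2, vertical axis) for the 725 measured genes of chromosome 6 in RefSeq gene order, counted from Htra2 at 0, on the vehicle arrays (top) and the rotenone arrays (bottom). Orange points are the 7 genes with an unadjusted p under 0.001 on the vehicle arrays. Apart from Loxl3 the genes next to Htra2 lie near 0, while Aqp1, Lancl2, Hoxa9 and Snx10 lie lower on both sets of arrays.

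Outside chromosome 6 no gene passed the adjusted threshold. The genes named next are those with the smallest unadjusted p, 10 in each direction, among the 524 genes (4.23%) whose 3 knockout and 3 wild-type arrays did not overlap. On the lower side, besides Htra2, Loxl3, Aqp1, Lancl2 and Snx10, stood Gjb2, which encodes the gap junction protein connexin 26 (-0.95, SE 0.15, adjusted p = 0.198). It read 11.71, 11.60 and 10.49 in wild-type and 10.41, 10.47 and 10.09 in knockout cells, with the smallest gap at replicate 3. Next were Masp1, a protease of the lectin complement pathway (-0.73), Anxa8, an annexin (-1.12), Hoxd10 (-0.65) and Ccn5, a secreted matricellular protein (-0.86). A dimmer Masp1 probe set differed by 0.05 while 3 others gave -0.64, -0.46 and -0.27, and a second Anxa8 probe set gave -0.98.

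On the higher side none of the 10 passed, with adjusted p from 0.361 to 0.877. Ctsc, the lysosomal protease cathepsin C, read 9.62, 9.37 and 9.60 in wild-type and 10.16, 10.19 and 9.95 in knockout cells, a difference of 0.57 (SE 0.11). En1, a transcription factor of ventral limb ectoderm and midbrain, read 6.42, 6.36 and 6.56 against 6.81, 7.17 and 6.86 (0.50, SE 0.11). Mmp9, a gelatinase, differed by 0.42, and by 0.64 on a dimmer probe set.

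The other 7 were Pcsk5, a proprotein convertase (0.49), Sprr3, a cornified envelope gene (0.40), Bcl11b, a zinc finger factor (0.38), Npy1r, a neuropeptide Y receptor (0.34), Slc26a3, an anion exchanger (0.32), Sparcl1, a matricellular protein (0.34), and Rpl39l, a paralogue of a ribosomal protein gene (0.51). Further probe sets of Pcsk5 gave 0.11 to 0.14, that of Npy1r 0.10 and that of Slc26a3 0.08. Pairs numbered 3 gave the smallest difference in 7 of the 10 higher and 6 of the 10 lower genes. By another measure, pair 3 was smaller in size than the mean of pairs 1 and 2 in 4937 of all 12393 genes.

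The rotenone arrays, which did not choose these genes and share no array with the vehicle comparison, though they may share its cultures, had the same sign for 10 of 10 higher and 10 of 10 lower genes. An unadjusted p under 0.05 was found on them for 4 of the 10 higher genes, En1 (0.83), Sprr3 (0.27), Mmp9 (0.44) and Rpl39l (0.69), and for 10 of the 10 lower ones. Over all genes that share was 9.7%. The sign held in all 3 rotenone pairs for 4 of the 10 higher and 9 of the 10 lower genes. Neither kind of sign agreement was counted over all genes. On the rotenone arrays the genotypes did not overlap for 3 of the higher and 8 of the lower genes, against 12.3% of all genes. After adjustment 1 probe set passed there (0.00442%), that of Htra2; the count was 0 without replicate 1 or 2 and 943 without replicate 3. The difference between the vehicle and rotenone gaps was also tested as an interaction over 12 arrays: 0 probe sets passed in limma (295 had an unadjusted p under 0.05, 1.3%).

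Gene groups around the known work of HtrA2 were described by their counts and medians, with 209 of 12393 genes higher (1.69%) and 287 lower (2.32%) at an unadjusted p under 0.05, and a median of 0.01, over all genes. Among 13 measured genes of HtrA2, inhibitors of apoptosis and the apoptosome, Htra2 was called and the median was -0.02. Birc5, which encodes the mitotic inhibitor survivin, was at -0.31 (unadjusted p = 0.0455), with pairs of -0.54, -0.57 and 0.18. Xiap, the best known HtrA2 target, was at -0.02 with pairs on both sides of 0, and Diablo, which encodes another mitochondrial antagonist of these inhibitors, at -0.03. Among 22 mitochondrial proteases and chaperones, none but Htra2 had an unadjusted p under 0.05, and the median was -0.05. Parl, a rhomboid protease that cleaves mitochondrial membrane proteins, differed by -0.20, and Oma1, a stress-activated metalloprotease, by -0.17.

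The 32 measured complex I subunits lay between -0.14 and 0.03 with a median of -0.05, and none had an unadjusted p under 0.05. Of 37 genes for complexes II to V, 1 had a p under 0.05, Cox7c (-0.25), and the median was -0.02. The 12 measured genes of Parkinson disease and mitophagy lay between -0.08 and 0.09, with Pink1, a mitochondrial damage kinase, at 0.07 (-0.14 in pair 3) and Park7 at -0.02. Of 15 measured BCL2 family genes, Bid, which encodes a death-receptor effector, was at -0.32 (unadjusted p = 0.00763) and the median was 0.00.

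Stress genes driven by ATF4 had estimates at or below 0. Of 22 such genes 0 had an estimate above 0 (6709 of 12393 over all genes), 3 had an unadjusted p under 0.05 and 0 were called (limma). The median was -0.10, and 10 of the 22 were below 0 in all 3 pairs. Other lists of mostly bright genes leaned either way. Estimates were below 0 for 27 of 32 complex I and 33 of 40 mitochondrial ribosomal genes, and above 0 for 29 of 36 lysosome and autophagy genes. Nupr1, a stress-induced chromatin protein gene, read 11.59, 11.56 and 10.88 in wild-type and 11.15, 10.94 and 10.52 in knockout cells, a difference of -0.48 (SE 0.09, adjusted p = 0.420). Trib3, a pseudokinase gene, was at -0.24 and Chac1, a glutathione-degrading enzyme gene, at -0.22. Of 13 serine, one-carbon and proline genes, 4 had a p under 0.05, all lower, with a median of -0.15; by pair the medians were -0.25, -0.20 and -0.02, so that replicate 3 lay near 0. The rotenone arrays gave medians of -0.09 for the ATF4 list and -0.20 for this list.

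Hox genes record the position of a cell along the body and limb axes. No Hox gene passed (limma); of 27 measured, 5 were lower and 4 higher at an unadjusted p under 0.05. The division by cluster and by paralogue number that follows was made after the values were seen, and no difference between clusters was tested. In the HoxA cluster the 4 measured genes numbered 9 to 13 all had estimates below 0, with a median of -0.39: Hoxa9 at -0.58, Hoxa10 at -0.36, Hoxa11 at -0.42 and Hoxa13 at -0.02. The 5 HoxA genes with lower numbers had a median of 0.04.

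In the HoxD cluster 4 of 5 genes numbered 9 to 13 had mean estimates below 0, led by Hoxd10 and Hoxd11, but in pair 3 alone 2 of the 5 did. Hoxd10 read 7.16, 7.15 and 7.22 in wild-type and 6.29, 6.25 and 7.05 in knockout cells, and Hoxd11 differed by -0.33 (unadjusted p = 0.00774). All 5 measured HoxC genes and 6 of 7 HoxB genes had mean estimates above 0, but in pair 3 alone 6 of these 12 genes were below 0. Those with an unadjusted p under 0.05 were Hoxc8 (0.39), Hoxc6 (0.30), Hoxb6 (0.27) and Hoxc4 (0.25), which in pair 3 stood at -0.06, 0.02, 0.01 and 0.12. On the rotenone arrays the HoxA genes numbered 9 to 13 were below 0 in 4 of 4 and those of HoxD in 5 of 5, and the HoxB and HoxC genes above 0 in 7 of 7 and 5 of 5.

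**Figure D3:**
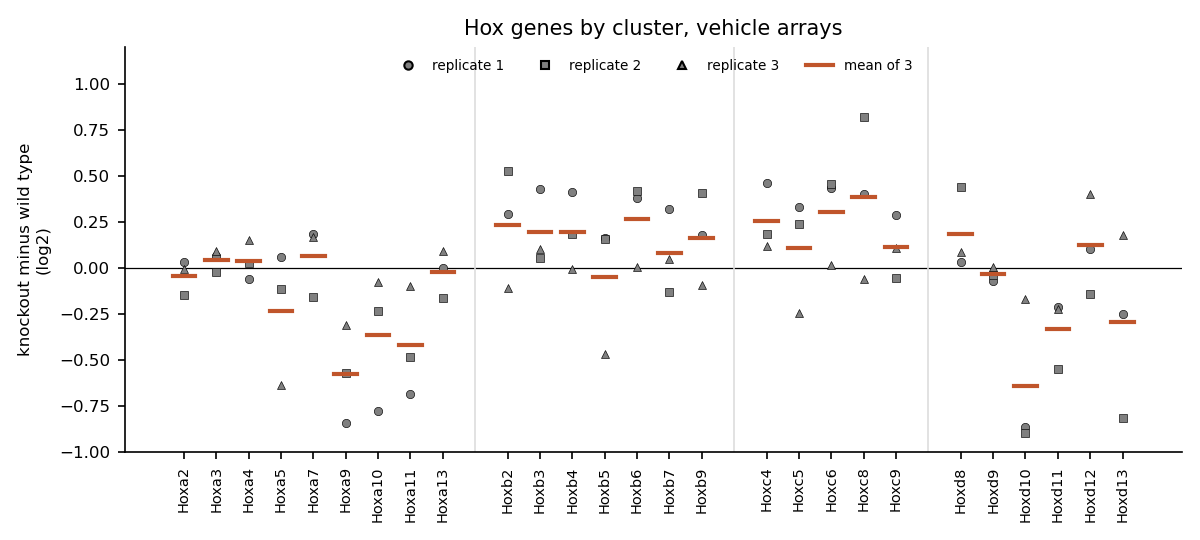
Difference between knockout and wild type (log2, vertical axis) of 27 Hox genes on the vehicle arrays, ordered by cluster (HoxA to HoxD, parted by grey lines) and paralogue number. Grey symbols are the 3 replicate pairs and the orange bar their mean. Hoxa9 to Hoxa11 and Hoxd10 to Hoxd11 lie below 0 in every pair, and most HoxB and HoxC means lie above 0, though 6 of those 12 genes are below 0 in pair 3.

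Other limb and position factors also stood near the top by p without passing. Msx2, a homeobox factor of limb and skull, read 7.12, 7.19 and 7.68 in wild-type and 6.56, 6.58 and 7.32 in knockout cells (-0.51, SE 0.09). Pitx1, which specifies the hindlimb, read 7.86, 7.82 and 7.56 against 7.34, 7.03 and 7.45 (-0.47, SE 0.12). With En1 (above) these were the 3 with the smallest p of 33 such factors, of which 6 were lower and 1 higher at an unadjusted p under 0.05; their median was -0.01.

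Genes of mitosis had lower values in knockout than in wild-type cells at replicates 1 and 2, but not at replicate 3. The mean level of the list was 8.41, 8.40 and 9.35 in wild-type and 8.02, 7.96 and 9.47 in knockout cells. Replicate 3 was thus the highest in both genotypes. None of 33 was called, 11 had an unadjusted p under 0.05, all lower, and the median was -0.27. By pair the medians were -0.39, -0.50 and 0.12; 32 of 33 genes were below 0 in both pairs 1 and 2, and 26 of 33 were above 0 in pair 3. Cenpf, a kinetochore protein gene, read 7.82, 7.95 and 8.79 in wild-type and 7.26, 7.45 and 8.65 in knockout cells (-0.40), with a dimmer probe set at 0.10. Hmmr, a spindle protein gene, was at -0.29 and Cenpe, a kinetochore motor gene, at -0.26. On the rotenone arrays 33 of 33 mean estimates were below 0, median -0.28. The 28 genes of DNA replication had a median of -0.10, with Pola1, a primase-bound polymerase subunit gene, at -0.28 (unadjusted p under 0.05 for 2, both lower). The mean level of these 28 was also highest at replicate 3. It was 8.66, 8.65 and 9.50 in wild-type and 8.51, 8.47 and 9.53 in knockout cells.

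Most interferon-stimulated genes had small estimates above 0. Of 29, 0 were called (limma), 5 had an unadjusted p under 0.05, all higher, 24 had an estimate above 0 (6709 of 12393 over all genes), and the median was 0.11. Of the 29, 14 were brighter than the dimmest 40% of probe sets. Some lists of mostly dim markers leaned the same way: 10 of 10 endothelial, 9 of 10 epithelial and 5 of 5 erythroid genes were above 0. Other marker lists with many dim genes varied. Above 0 were 8 of 10 neural and glial, 6 of 8 cartilage and bone, 5 of 6 hepatocyte and 8 of 12 striated muscle genes. The counts were 6 of 12 for leukocyte, 3 of 6 for adipocyte and 0 of 4 for mesothelial genes. Bst2, which tethers virus particles to cells, read 7.77, 7.78 and 7.71 in wild-type and 7.94, 8.07 and 8.12 in knockout cells. The groups did not overlap (0.29, SE 0.09). Psmb8, an immunoproteasome subunit gene, was at 0.27 and Usp18, which removes ISG15, at 0.33. By pair the medians were 0.16, 0.03 and 0.08, and on the rotenone arrays 26 of 29 estimates were above 0 with a median of 0.18.

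**Figure D4:**
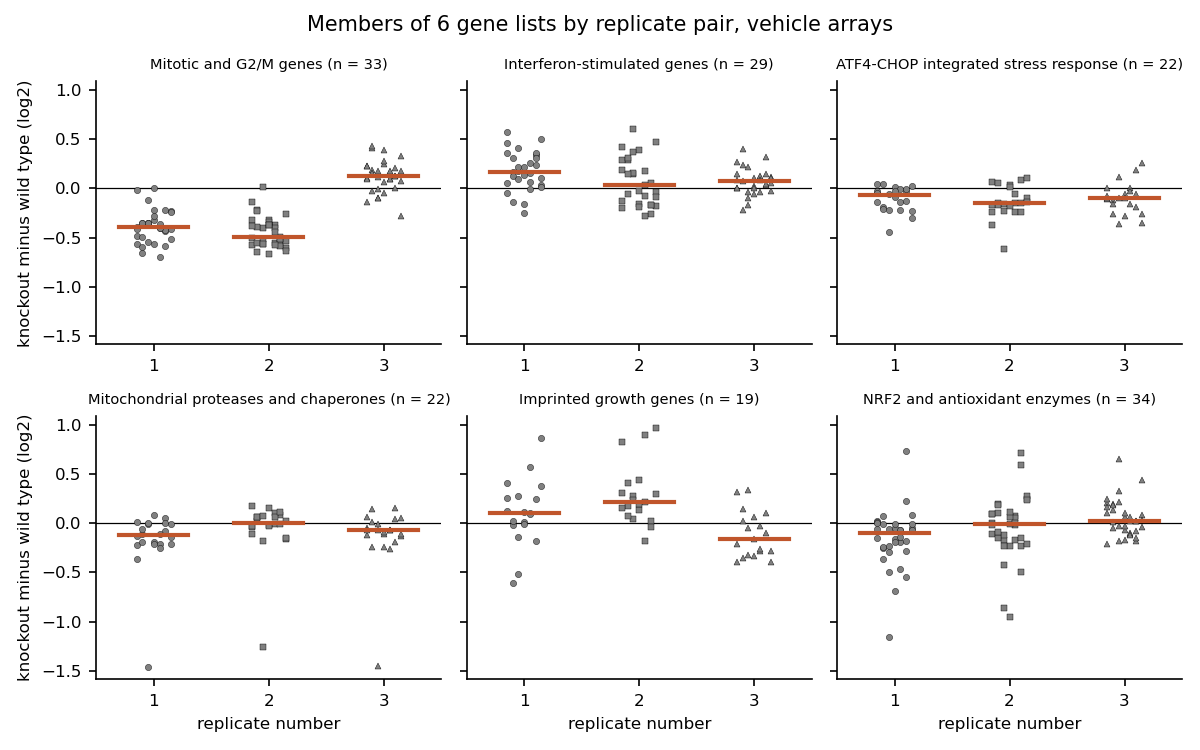
Difference between knockout and wild type (log2, vertical axis) of the measured members of 6 gene lists, by replicate number on the vehicle arrays. Each symbol is a gene and the orange bar the median of the list. The mitotic medians are -0.39, -0.50 and 0.12, those of ATF4 targets -0.07, -0.15 and -0.10, and the low point among mitochondrial proteases is Htra2.

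Matrix and growth factor genes held some of the largest estimates without a call other than Loxl3. Mmp13, a collagenase, had the highest difference of all genes, 1.23 (SE 0.26, adjusted p = 0.442), with 6.12, 5.95 and 6.90 in wild-type and 6.35, 7.25 and 9.07 in knockout cells. Its pairs ran from 0.22 to 2.17 and the groups overlapped. Of 18 measured metalloproteases and inhibitors 4 were higher and 0 lower at an unadjusted p under 0.05, and the median was 0.03. Mmp10, a stromelysin, was at 0.28 with no overlap.

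Igfbp4, which binds insulin-like growth factors, read 11.76, 11.87 and 12.09 in wild-type and 10.28, 10.97 and 11.99 in knockout cells (-0.83, SE 0.20, adjusted p = 0.557). All 6 Igfbp4 probe sets lay between -0.83 and -0.58. Igfbp2 was at -0.55 (pairs of -1.08, -0.54 and -0.03) and Igfbp6 at -0.21, and the 13 genes of the IGF system had a median of 0.05. Among other matrix genes Mfap4, a microfibril protein gene, was at 0.57 and Fmod, the collagen-binding fibromodulin, at -0.64 (pairs of -0.93, -0.97 and -0.03). Collagens Col14a1 (0.54) and Col7a1 (0.52) were the 2 of 20 with an unadjusted p under 0.05, and the median was 0.00. Their pairs numbered 3 stood apart, with 0.84, 0.69 and 0.10 for Col14a1 and 0.89, 0.75 and -0.08 for Col7a1. Antioxidant genes had a median of -0.04 over 34, with Mgst3 (-0.40) and Gsta4 (-0.56), both glutathione-conjugating enzyme genes, on the lower and Gpx3, a secreted peroxidase gene, on the higher side (0.43). A dimmer Mgst3 probe set differed by 0.02. By pair Gsta4 gave -0.69, -0.95 and -0.03, and Gpx3 0.74, 0.72 and -0.18.

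Many markers of other cell types were dim, and some differed at an unadjusted p under 0.05 without a call. Ptprc, the leukocyte antigen CD45, was at 5.05 to 5.40 in wild-type and 5.17 to 5.30 in knockout cells, and Cdh5, the endothelial cadherin, at 5.92 to 6.25 and 5.99 to 6.20. Others on the same lists were brighter. Csf1r, a leukocyte marker, was at 8.17 to 8.45 in wild-type and 8.23 to 8.47 in knockout cells. Kdr, an endothelial marker, was at 8.16 to 8.34 and 8.29 to 8.35. The 7 smooth muscle markers were bright, with a median level of 11.4, and none had an unadjusted p under 0.05. None of 12 leukocyte, 10 epithelial, 12 striated muscle or 6 hepatocyte markers had an unadjusted p under 0.05. Of 10 endothelial markers 2 did, Pecam1 (0.33) and Cldn5 (0.24). All 10 had estimates above 0, and their summed signal on the log2 scale was 10.91 to 11.14 in wild-type and 10.98 to 11.39 in knockout cells. Upk3b, a marker of mesothelium, read 7.35, 7.43 and 8.02 in wild-type and 7.16, 6.95 and 7.31 in knockout cells (-0.46, SE 0.11). The summed signal of the 4 mesothelial markers was 8.90 to 9.83 and 8.72 to 9.52. Of 6 adipocyte markers 3 had an unadjusted p under 0.05: Fabp4, a fatty acid carrier gene (-0.45), Adipoq, which encodes adiponectin (-0.38), and Lpl, the lipoprotein lipase gene (0.35). Their pairs were uneven, from -1.03 to -0.01 for Fabp4, from -0.80 to 0.08 for Adipoq and from -0.17 to 0.71 for Lpl, and the summed signal of the 6 was 9.49 to 10.60 in wild-type and 9.55 to 10.45 in knockout cells. Dimmer Fabp4 probe sets were split in sign, at 0.13, 0.09 and -0.33. Among 10 neural and glial markers Stmn2, a neuronal microtubule regulator, was at -0.25 (unadjusted p = 0.0375), and a dimmer Stmn2 probe set at -1.09 (adjusted p = 0.198). The part of such cells in the differences above was not tested. Fibroblast genes had a summed signal of 16.1 to 16.3 in wild-type and 16.2 to 16.4 in knockout cells. Of 16, 3 were higher, among them Fap, a fibroblast surface protease (0.46, with pairs of 0.62, 0.81 and -0.04), and Twist2, a mesenchymal transcription factor (0.33), and 1 lower, S100a4 (-0.25), at an unadjusted p under 0.05.

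For some genes the difference between genotypes at replicate 3 was unlike that at replicates 1 and 2. Replicate 3 is a single array per genotype and treatment. A term for this, added after the pairs had been seen, was tested over all 12 arrays: 348 of 22626 probe sets passed (1.54%, limma), standing for 214 of 12393 genes (1.73%). For 72 genes (0.581%) the knockout level relative to wild type was higher at replicate 3 than at replicates 1 and 2, and for 142 genes (1.15%) it was lower. The arrays of both treatments chose these genes, so their values are a description, and if vehicle and rotenone arrays of a number share a culture, the p-values of this fit are too small. On the vehicle arrays the first 72 had a median difference of -0.53 at replicates 1 and 2 and of 0.16 at replicate 3. The other 142 had medians of 0.34 and -0.27. The rotenone arrays gave -0.60 and 0.25 for the former and 0.37 and -0.55 for the latter. Fitted alone, the 6 vehicle arrays gave 65 probe sets, 58 of them among the 348, and the 6 rotenone arrays 2462, with 334 of the 348. Each of these fits had 1 residual degree of freedom. Their arrays are part of the fit of 12 that gave the 348, so the overlaps are not independent support.

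Cxcl5, a neutrophil-attracting chemokine, had the largest such term, 2.13 (SE 0.17, limma adjusted p = 1.37e-06). It read 7.07, 6.82 and 9.99 in wild-type and 5.06, 5.22 and 10.33 in knockout cells. Knockout cells were thus lower by -2.01 and -1.60 in pairs 1 and 2 and 0.34 higher in pair 3. Aqp1 followed with pairs of -2.81, -2.70 and -0.70 (term 1.89, adjusted p = 9.08e-07), and the same pattern held for Ppbp, another chemokine, at -1.49, -0.99 and 0.43. Coch, a secreted cochlin gene (-1.58, -1.60 and -0.13), and Col10a1, a hypertrophic cartilage collagen (term 1.39), were lower in pairs 1 and 2 and near 0 in pair 3. So were Anxa8, Igfbp4 and Ccn5, named above.

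In the other direction Ptprz1, a receptor phosphatase gene, read 9.11, 9.18 and 9.66 in wild-type and 9.96, 10.14 and 9.38 in knockout cells. Its term was -1.53 (SE 0.16, adjusted p = 3.49e-05). Moxd1, a monooxygenase-like gene, was higher in knockout cells by 1.36 and 1.63 in pairs 1 and 2 and by 0.07 in pair 3. Ctla2a, a cysteine protease inhibitor gene, gave 0.94, 1.10 and -0.52, and Npr3, the natriuretic peptide clearance receptor, 0.79, 0.63 and -0.51. Peg3, an imprinted growth gene, gave 0.86, 0.96 and -0.28 and was 1 of 4 among 19 imprinted genes with such a term. Mitotic genes had it in 12 of 33, all positive. For Htra2 the term was -0.05 and for Loxl3 -0.26, and neither passed. Replicate 3 was also the number with the higher Xist, lower Eif2s3y and higher mean mitotic gene levels in both genotypes. The part of these in the term was not tested.

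**Figure D5:**
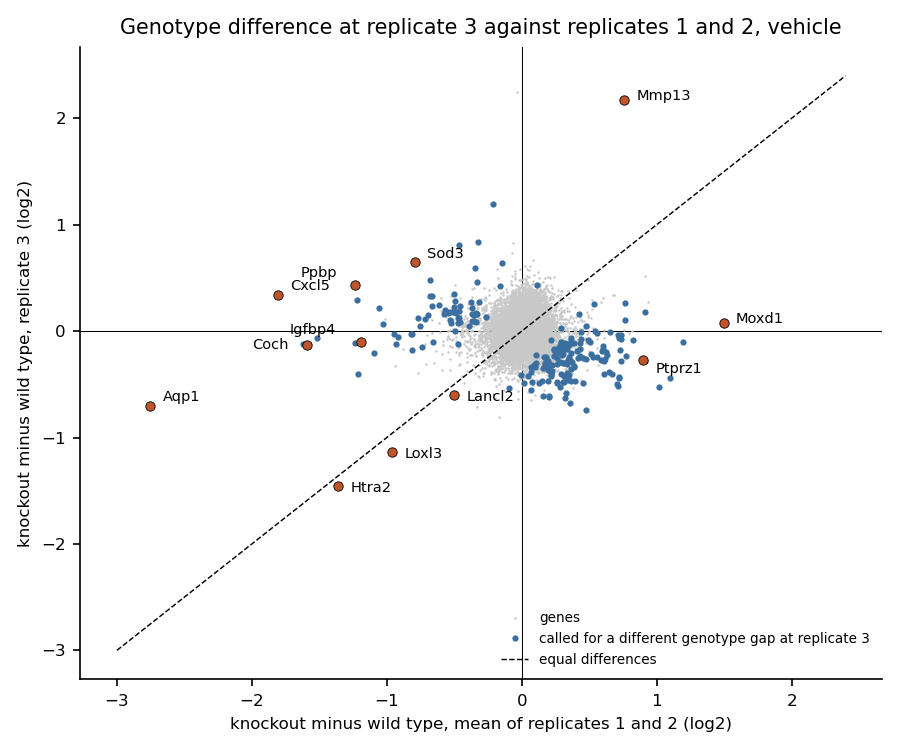
Difference between knockout and wild type on the vehicle arrays at replicate 3 (log2, vertical axis) against the mean difference at replicates 1 and 2 (log2, horizontal axis), for 12393 genes. Blue points are the 214 genes called for a different genotype gap at replicate 3 in the fit of 12 arrays, and orange points are named genes. Htra2, Loxl3 and Lancl2 lie by the dashed line of equal differences, while Cxcl5, Aqp1, Coch and Moxd1 lie far from it.

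Without replicate 3, 208 probe sets passed, for 130 genes, 58 higher and 72 lower. That fit had 1 residual degree of freedom and took its spread wholly from all probe sets together, with an SE of 0.15 for each. Of the 130 genes, 129 had the same sign in both rotenone pairs 1 and 2, which may share cultures with those of the vehicle arrays. The rate of such agreement over all genes was not counted. On chromosome 6 lay 11 of the 130 genes, and that chromosome held 5.85% of all measured genes. Whether 11 exceeds that share was not tested.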

How the data were processed

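Biotin-labelled cRNA was hybridised to Affymetrix expression arrays, per the labels' protocols. Per the submitters' processing notes the deposited log2 values come from RMA. Its version was not given in the sources used here, and RMA shrinks differences near background and would hide a shift shared by most transcripts. Scanner intensities and detection calls were not used here, so signal over background is unknown, and precision is limited by the few arrays. The 6 arrays had medians of 7.53 to 7.57 and correlated at 0.986 to 0.997, and no 2 held identical values. No further normalization was applied.

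Of 22690 probe sets, 64 array controls were left out. The platform annotation gave 1 symbol to 20380 of the 22626 tested, several to 691 and none to 1555, and 20359 matched RefSeq (GRCm38.p6), used for names and gene order only. Each of 12393 genes was represented by its brightest probe set over the 6 arrays.

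Knockout was compared with wild type in limma 3.58.1 (lmFit, eBayes, two-sided, R 4.3.3) with the replicate number as a fixed block and Benjamini-Hochberg adjustment over all probe sets at 0.05. All p-values of genes come from limma. The block was set by the plan of the comparison, and the labels do not say that arrays of equal number were paired. Deviations from the group means correlated at 0.382, 0.371 and 0.764 between same-numbered arrays. Arrays 1 and 2 of opposite genotype correlated as well (0.318 and 0.466). These values thus set only number 3 apart, and do not show that arrays numbered 1, or those numbered 2, belong together. Rotenone arrays were fitted in the same way, alone, and the interaction and the replicate term in fits of 12 arrays.

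Named genes are Htra2, up to 10 per direction without overlap by smallest p, up to 3 per list by smallest p, neighbours of Htra2 and sex-linked genes; those of the replicate term were taken by its size, and further names (HtrA2 partners, Hox genes, markers, Ggct) were chosen after their values were seen. The 53 gene lists named 1109 genes, of which 991 were measured; 49 lists had no called member. The members and lists were chosen with earlier results of these data known. On simulated data the fit recovered 60 of 67 differences of 0.5, 67 of 67 of 1 and 66 of 66 of 1.5 (log2, either direction). It also made 20 false calls among 22426 unchanged probe sets. The simulated scatter was independent between arrays, so it held no difference of genotype gap at replicate 3. Far more probe sets were changed there than were called in the real comparison, which eases the adjusted threshold. These rates thus do not carry over to the real comparison, where Lancl2 at -0.54 was not called (limma adjusted p = 0.251). A gene without a call is not shown to be unchanged.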

Additional observations from a re-analysis of the deposited data

Results flagged for a closer look

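Ibsp, which encodes bone sialoprotein, had estimates of opposite sign in the 2 treatments on its brighter probe set. The knockout-minus-wild-type difference was above 0 in all 3 vehicle pairs and below 0 in all 3 rotenone pairs. The rotenone difference was lower than the vehicle difference by a value of -0.457 on the log2 scale. The probe set is dim, with a mean of 4.46 on the vehicle arrays, and its vehicle difference was 0.15 (limma unadjusted p = 0.128). A dimmer Ibsp probe set differed by 0.47 on the vehicle arrays (limma unadjusted p = 0.0377) and was not called. No probe set passed for this interaction after adjustment in limma, among 22626 tested.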

How the results depend on the processing

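The 2 calls of the vehicle comparison rested on the replicate block. Without the block 0 probe sets passed (220 with an unadjusted p under 0.05), Htra2 kept its difference of -1.39 at adjusted p = 0.154 and Loxl3 at 0.122, and the counts over gene lists and on chromosome 6 were 0. With a random block 2 passed, with 12 arrays in the fit 4, after a further quantile normalization 1 (Loxl3 at adjusted p = 0.108), with a trended robust variance 14, and with the mean of all probe sets of a gene 1. That mean put Htra2 at -0.50 (adjusted p = 0.342). Over the settings that left out a replicate or an array the count ran from 0 to 208, the list count from 0 to 46, and the rotenone count from 0 to 943; the highest counts came without replicate 3. Htra2 ran from -1.46 to -1.36 without a replicate and, with no block and 1 array left out, stood at -1.41, -1.51 and -1.26 (wild-type arrays 1 to 3) and at -1.34, -1.34 and -1.49 (knockout arrays 1 to 3), past the threshold only without knockout array 3. The rotenone count was 9 with 12 arrays in the fit. List members numbered 1 after quantile normalization, 5 with the trended variance and 1 with probe set means. The replicate term gave 65 and 2462 probe sets from vehicle or rotenone arrays alone. No called difference changed sign. Among the 299 named probe sets besides the brighter one of Htra2, nearly all uncalled, Loxl3 was the one that changed side of the threshold without the block; 18, 14 and 11 uncalled ones changed sign without replicates 1, 2 and 3, and 56 more passed without replicate 3. The medians of 15, 11 and 7 of 53 lists also changed sign without replicates 1, 2 and 3, that of HtrA2 and the apoptosis inhibitors from -0.02 to 0.03 without replicate 3. The causes were not tested, and dim probe sets may hide differences that signal near background does not show.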

Other observations

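Sftpc, the lung surfactant protein C gene, was chosen after its values were seen: its difference was 2.25 at replicate 3, against 0.16 and -0.22 at replicates 1 and 2, on the vehicle arrays. Each of these differences rests on 1 array per genotype, and Sftpc was not called in the vehicle comparison.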
